A study of Mus musculus with 12 samples.

Results

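The genes described here were 10 members of the common gamma chain and thymic stromal lymphopoietin (TSLP) cytokine axis, Il2rg, Il7r, Crlf2, Il2ra, Il2rb, Il15ra, Il21r, Il7, Il15 and Tslp, measured in mouse skin wounds treated with capsaicin. They were picked by symbol from the 55487 genes of each expression table, and all 10 were found. The 12 wound libraries were made from total RNA with an mRNA library kit and sequenced. The tables give TPM, a transcript level corrected for gene length and scaled to the same total in every library. The mice were male C57BL/6JNarl animals, 6 weeks old, with 2 full-thickness wounds of 6 mm in diameter on the back. Wounds of the sham group received Pluronic F127 gel alone (P-F127), and CAP-treated wounds received 10 µM capsaicin (CAP), the pungent compound of chili peppers, in the same gel once daily. Tissue was taken at Day 3 or Day 6, with 3 libraries in each of the 4 groups. All groups shared the wound and the gel, and unwounded skin was not analysed here. The labels number the replicates without naming the mouse, so the p-values below measure the spread between these libraries, which may in part be technical.

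The common gamma chain, encoded by Il2rg, is a subunit of the receptors for IL-2, IL-4, IL-7, IL-9, IL-15 and IL-21, and it signals through the kinases JAK1 and JAK3 to STAT proteins in lymphocytes. The IL-7 receptor alpha chain (Il7r) joins it to bind IL-7, or joins CRLF2 to bind TSLP, an alarmin that keratinocytes release and that acts on dendritic cells, mast cells and type 2 lymphocytes of the skin. IL-15 is held on the cell surface by IL-15RA and presented to natural killer (NK) and T cells that carry the IL-2 receptor beta and common gamma chains, while the alpha chain encoded by Il2ra marks activated and regulatory T cells.

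Skin was present in every library as labelled: the summed TPM of 8 keratinocyte genes was 30321 to 97431 and that of 6 fibroblast genes 10384 to 26189. The summed TPM of 19 T and NK cell genes was 59.2 to 161, against 1273 to 3083 for 10 monocyte and macrophage genes. Such sums of chosen genes do not measure the share of a cell type in the RNA. Which cells carried the members was not tested. The samples were bulk tissue, in which fewer cells of a type and less RNA per cell cannot be told apart. A pair of libraries differed from the rest of their groups in marker genes. CAP Day 3 replicate 3 had the highest Cd68 of all libraries (1732 TPM) and the lowest keratinocyte sum of its group (32563 TPM). CAP Day 6 replicate 2 had the highest keratinocyte sum (97431 TPM) and the lowest sums of macrophage (1273 TPM) and endothelial genes (58.0 TPM). Over 16169 genes, the root mean square log2 difference between replicates was largest between CAP Day 3 replicates 1 and 3 (0.598) and between CAP Day 6 replicates 2 and 3 (0.716). In CAP Day 3, replicates 1 and 2 were closest (0.490), and replicate 3 was at 0.548 from its nearest. In CAP Day 6 this distance did not single out 1 library. The 6 sham libraries had 0.489 to 0.562 to the farthest of their group. Leaving out CAP Day 6 replicate 3 moved the number of genes called at Day 6 from 697 to 1483, and leaving out replicate 2 moved it to 311. TPM does not keep the read number, so the depth behind each value is unknown and 3 libraries per group limit the precision.

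All coordinates are on GRCm38. Il7r lies at chr15:9505788-9530176 and Il2rb at chr15:78479256-78495271, both on the minus strand. Il2ra, at chr2:11642807-11693193, and Il15ra, at chr2:11705290-11734317, lie 12096 bases apart on the plus strand of chromosome 2. Il2rg is at chrX:101264378-101268255, Il7 at chr3:7569994-7613760, Il15 at chr8:82331632-82403222, Crlf2 at chr5:109554709-109558993 and Il21r at chr7:125603429-125633570. Exons of Il2rg overlap those of Gm20489 on the same strand, which was listed at 0 in 9 of 12 libraries and reached 0.0909 TPM at most. Exons of Il7 overlap those of the antisense gene Gm16685, at 0.176 to 1.15 TPM, and the sources used here do not say that strand was used in counting, so reads of these 2 genes may not be told apart.

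Sequence before the start site is shown for Il2ra and Il7r, the members called at Day 3. Of the 10 genes, 6 had an entry in the RefSeq promoter table (GRCm38.p6), which covers 250 bases before to 50 after each start. The STAT site (TTCNNNGAA, both strands) occurred in 8.3% of 32851 such windows and, among the members, 1 time, in Il7r. The interferon stimulated response core (GAAANNGAAA, both strands) occurred in 3.44% of the windows and in none of the members' windows. The first line gives the 250 bases before the start of Il2ra, chr2:11642542-11642791 on the plus strand, which hold neither motif. The second line gives 30 bases of the Il7r window, chr15:9529999-9530028 on the minus strand, with the STAT match in capitals, whose first base lies 142 bases before the RefSeq start and inside the longer gene model of the expression tables. A match is a description of letters and no evidence of binding.
Il2ra: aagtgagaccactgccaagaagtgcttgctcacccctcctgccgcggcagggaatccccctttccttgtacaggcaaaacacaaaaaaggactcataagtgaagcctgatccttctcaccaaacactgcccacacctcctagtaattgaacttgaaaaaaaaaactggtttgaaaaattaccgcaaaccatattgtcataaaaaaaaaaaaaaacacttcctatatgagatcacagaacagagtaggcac
Il7r: gttcaggagcTTCAGGGAAtaccaagatgc

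Levels of the 10 genes differed far more between genes than between groups. Il2rg, Crlf2 and Il15ra were the most abundant, with 36.1 to 78.6, 31.9 to 88.8 and 35.5 to 51.0 TPM over the 12 libraries. Il15 (6.86 to 15.3 TPM), Tslp (2.15 to 21.7 TPM), Il21r (1.98 to 11.3 TPM) and Il2rb (2.92 to 7.28 TPM) formed a middle range, in which the ranges of neighbouring genes overlapped in most groups. Il2ra (0.937 to 5.09 TPM) was second lowest and Il7 (0.164 to 0.598 TPM) lowest in all 4 groups, and Il7 did not overlap Il2ra in any of them. Il7r changed place: it had rank 4 by mean level in both sham groups and at CAP Day 6, and rank 3 in CAP Day 3, where its range of 15.5 to 92.8 TPM overlapped those of Il2rg and Il15ra.

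**Figure D1:**
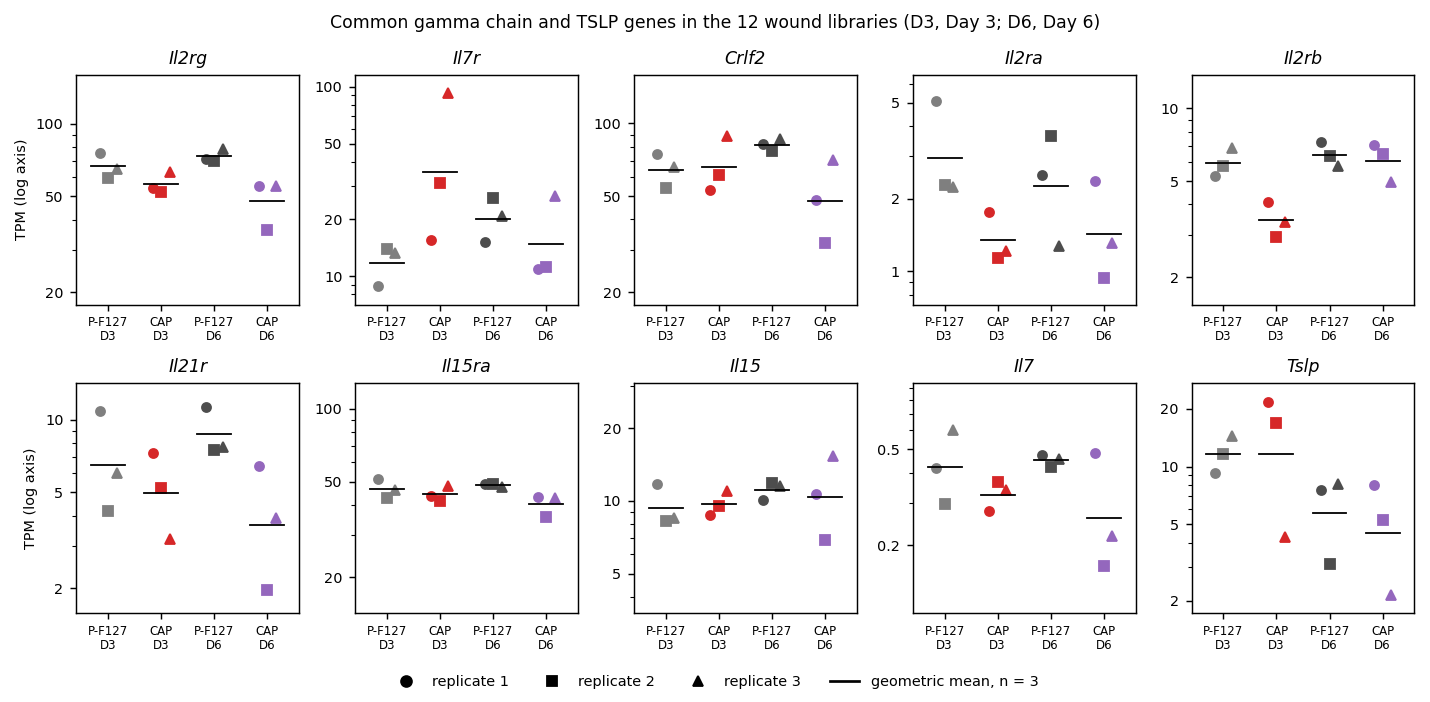
TPM of the 10 genes in each library (y, log axis) for the 4 groups (x), with a marker shape per replicate number and a bar at the geometric mean of 3 libraries. Il7r in CAP Day 3 ran from 15.5 to 92.8 TPM, and the 3 CAP Day 3 libraries of Il2rb (2.92 to 4.11 TPM) sat below all other libraries.

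The genes also differed in how well their replicates matched. The pooled within-group SD of log2 TPM was 0.11 for Il15ra, 0.22 for Il2rg and 0.22 for Il2rb, against a median of 0.22 over 16169 genes averaging 1 TPM or more. Tslp (0.88), Il7r (0.79), Il21r (0.64) and Il2ra (0.61) varied more between replicates.

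A gene was called when its unadjusted p was below 0.05 and its difference at least 2-fold, the threshold of the study, and the p adjusted over all genes tested is given beside it. At Day 3, Il7r was called higher and Il2ra lower in CAP-treated wounds, 2 of 10 genes, where 1.58% of 18330 tested genes were called, 0.426% higher and 1.16% lower. The paper had already listed these 2 genes at Day 3, in the same directions. The members were chosen with earlier results of these data known, so 2 of 10 is no test of the set. Il2rb, lower by 1.70-fold, had the smallest p of the members but did not reach 2-fold. These 3 genes had an unadjusted p below 0.05, as did 6.60% of all genes. Their CAP and sham libraries did not overlap, which was the case for 11.6% of all genes. The members' median log2 difference was -0.16 beside -0.05 for all genes, and the calls over all genes split into 78 higher and 212 lower, or 99 and 159 after quantile normalization. At Day 6, 9 of the 10 genes passed the filter of 0.3 TPM and 1, Il21r, was called lower, where 3.80% of 18323 genes were called, 1.46% higher and 2.34% lower. Il2rg, Crlf2, Il15ra and Il21r were lower without overlap between groups, 4 of 9, where 26.0% of all genes did not overlap. The same 4 genes had an unadjusted p below 0.05, as did 19.2% of all genes. All 9 estimates were below 0, with a median of -0.44 beside -0.12 for all genes, but those of Il2rb and Il15 turned to 0.03 and 0.01 after median-ratio scaling, which moved the median of all genes to -0.01. Calls over all genes at Day 6 split into 268 higher and 429 lower, or 391 and 294 with that scaling.

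From Day 3 to Day 6, no member was called in either arm, where 3.75% of 18368 genes were called in the sham group (2.13% higher, 1.61% lower) and 2.79% of 18202 in CAP-treated wounds (1.27% higher, 1.52% lower). In the sham group, 3 of 10 genes had an unadjusted p below 0.05 and groups that did not overlap, Il7r and Crlf2 higher and Tslp lower at Day 6, where 16.0% of all genes had such a p and 21.4% did not overlap. In CAP-treated wounds this held for 1 of 9 genes, Il2rb, higher at Day 6, where 11.6% of all genes had such a p and 17.7% did not overlap. The CAP effect differed between the days for Il7r, the 1 member of 10 called in that test, where 4.90% of 20267 genes were called (2.18% higher, 2.73% lower). Il2rb also had an unadjusted p below 0.05, as did 11.3% of all genes. With adjustment over all genes in limma, 0 members passed in any of the 5 comparisons, although 3, 4, 3, 1 and 2 members had an unadjusted p below 0.05 in them, in the order given here. Adjusted calls over all genes were 0.0164% in the Day 3 comparison, 0% at Day 6, 2.29% over time in the sham group, 0.00549% over time in CAP-treated wounds and 0% for the difference between days. These comparisons share libraries, so their values are set side by side and are not independent. The column headers end in a number that is the same within a day and differs between the days. Day cannot be told apart from whatever that number marks. The exact permutation test of 3 against 3 libraries (two-sided) cannot go below 0.1, and it gave 0.1 wherever the groups did not overlap.

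**Figure D2:**
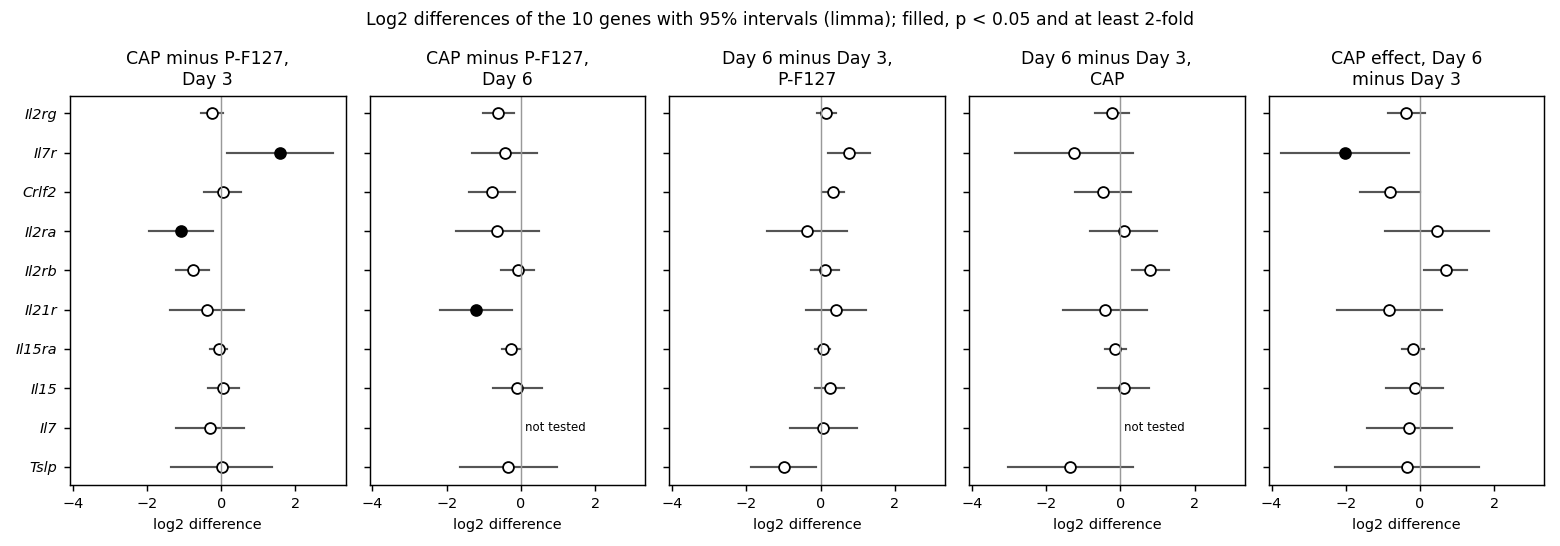
Log2 differences of log2(TPM + 0.1) (x) for the 10 genes (y) in the 5 comparisons, with 95% intervals from limma and filled points for called genes. Filled points are Il7r (1.58) and Il2ra (-1.09) at Day 3, Il21r (-1.21) at Day 6 and Il7r (-2.02) for the difference between days.

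The shared chain Il2rg was at 75.9, 59.4 and 65.1 TPM in the sham libraries at Day 3 and at 54.0, 52.1 and 63.3 TPM in the CAP libraries, which overlapped. At Day 6 it was at 71.6, 70.3 and 78.6 TPM in the sham group and 55.3, 36.1 and 55.2 TPM in CAP-treated wounds, so that all 3 CAP libraries lay below all sham libraries. The log2 difference at Day 6 was -0.61 ± 0.18 (SE, n = 3 per group), with an unadjusted p of 0.0109 and an adjusted p of 0.212 in limma. Without CAP Day 6 replicate 2, the lowest library, it was -0.41, and the remaining CAP libraries still lay below the sham group. Over time, Il2rg overlapped between days in both arms, with log2 differences of 0.14 ± 0.11 in the sham group and -0.23 ± 0.19 in CAP-treated wounds.

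Il7r, which encodes a chain of the receptors for IL-7 and TSLP, was at 8.83, 13.9 and 13.3 TPM in the sham libraries at Day 3. In the CAP libraries it was at 15.5, 31.0 and 92.8 TPM. All CAP libraries lay above all sham libraries, but the first CAP library was close to the sham range and CAP Day 3 replicate 3 lay far above it. The log2 difference was 1.58 ± 0.60 (95% interval 0.16 to 3.01), or 3.00-fold, with an unadjusted p of 0.0342 and an adjusted p of 0.730. Without CAP Day 3 replicate 3, the library with the highest Cd68, the difference was 0.89 and was no longer called. The call was also lost, by an unadjusted p above 0.05, without any 1 of the 3 sham libraries (0.0550 to 0.0993) or without CAP Day 3 replicate 2 (0.0603), although the differences stayed above 2-fold, at 1.38, 1.70, 1.67 and 1.68. The call was kept without CAP Day 3 replicate 1, where the difference was 2.18.

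Macrophage and lymphocyte genes are given beside Il7r because both kinds of cell occur in wounds and can express it. Of 10 monocyte and macrophage genes, 7 were lower in CAP-treated wounds at Day 3, with a list median of -0.32, and 3 were called lower, Ly6c2 (-2.48), Ccr2 (-1.33) and Cx3cr1 (-1.17). Of all tested genes, 1.16% were called lower. C1qa, a complement gene of tissue macrophages, was at -0.98 without overlap and was not called. Cd68, a lysosomal macrophage protein, had the highest estimate of the list (0.40 ± 0.31, not called), followed by Itgam (0.39 ± 0.31, not called). Cd68 was at 810, 708 and 941 TPM in the sham group at Day 3 and at 737, 972 and 1732 TPM in CAP-treated wounds. Its order was that of Il7r within the CAP libraries but not within the sham libraries, where Il7r was at 8.83, 13.9 and 13.3 TPM. The summed level of the 10 monocyte and macrophage genes was 2058 to 2624 TPM in the sham group and 1861 to 3051 TPM in CAP-treated wounds. Of 17 tested T and NK cell genes, 15 were lower, with a median of -0.31, and 4 were called lower. Cd3e, of the T cell receptor complex, was at 5.18, 7.65 and 7.39 TPM in the sham group and at 6.62, 5.95 and 7.34 TPM in CAP-treated wounds, with overlap. The part of these cells in the Il7r difference was not tested.

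At Day 6, Il7r overlapped between treatments, with 15.2, 25.7 and 20.7 TPM in the sham group and 10.9, 11.2 and 26.4 TPM in CAP-treated wounds, and the log2 difference was -0.44 ± 0.37. In the sham group all Day 6 libraries lay above all Day 3 libraries, by 0.76 ± 0.24 on the log2 scale (unadjusted p = 0.0148, adjusted p = 0.177), which is below 2-fold. In CAP-treated wounds the days overlapped and the difference was -1.26 ± 0.67. The difference of the CAP effect between Day 6 and Day 3 was -2.02 ± 0.78 (unadjusted p = 0.0255, adjusted p = 0.428). The call was lost without P-F127 Day 3 replicate 1 (-1.81), P-F127 Day 6 replicate 2 (-1.84), CAP Day 6 replicate 1 (-1.80) or CAP Day 6 replicate 2 (-1.82), with unadjusted p from 0.0572 to 0.0586. The difference was -1.13 with an unadjusted p of 0.0881 without CAP Day 3 replicate 3 and CAP Day 6 replicate 2.

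Crlf2, which encodes the chain that pairs with Il7r in the TSLP receptor, was at 75.0, 54.1 and 65.9 TPM in the sham group and 53.1, 61.4 and 88.8 TPM in CAP-treated wounds at Day 3, with overlap and a log2 difference of 0.04 ± 0.21. At Day 6 it was at 81.8, 77.2 and 86.1 TPM in the sham group and 48.4, 31.9 and 70.3 TPM in CAP-treated wounds, where every CAP library lay below every sham library. The Day 6 difference was -0.78 ± 0.26 on the log2 scale (unadjusted p = 0.0218, adjusted p = 0.226), or 1.71-fold. It was -0.49 without CAP Day 6 replicate 2 and -1.05, with an adjusted p of 0.0345, without CAP Day 6 replicate 3. In the sham group Crlf2 was higher at Day 6 without overlap, by 0.34 ± 0.13. In CAP-treated wounds the days overlapped.

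The ratio of Crlf2 to Il7r in the same library compares the RNA of the TSLP receptor chains over all cells of the tissue, and not the chains on a cell. It was 3.90 to 8.49 in the sham group and 0.956 to 3.42 in CAP-treated wounds at Day 3, without overlap, the lowest value coming from CAP Day 3 replicate 3. At Day 6 the ratio was 3.00 to 5.39 in the sham group and 2.66 to 4.42 in CAP-treated wounds, with overlap. The ratio of Il2rg to Il7r, the chains of the IL-7 receptor, was 4.28 to 8.60 in the sham group and 0.682 to 3.48 in CAP-treated wounds at Day 3, also without overlap. These ratios contain Il7r and so repeat its difference.

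Tslp, the epithelial ligand, was at 9.23, 11.6 and 14.5 TPM in the sham group at Day 3 and at 21.7, 16.9 and 4.32 TPM in CAP-treated wounds. The first 2 CAP libraries lay above the sham range and CAP Day 3 replicate 3, with the lowest keratinocyte sum of its group, lay below it, so that the log2 difference was 0.01 ± 0.57 with a 95% interval of -1.35 to 1.38. Without that library the difference was 0.72 (unadjusted p = 0.0163, adjusted p = 0.509), below 2-fold. At Day 6 Tslp was at 7.55, 3.09 and 8.07 TPM in the sham group and 8.05, 5.30 and 2.15 TPM in CAP-treated wounds, with overlap and a difference of -0.34 ± 0.55.

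Over time, Tslp in the sham group was lower in every Day 6 library than in any Day 3 library. The log2 difference was -0.99995 ± 0.37 (unadjusted p = 0.0291, adjusted p = 0.242), which stopped just short of 2-fold, and it was called with a pseudocount of 0.01 TPM or after quantile normalization. The summed keratinocyte level moved the same way in these libraries, from 40763 to 59997 TPM at Day 3 to 30321 to 36790 TPM at Day 6, and its part in the Tslp difference was not tested. In CAP-treated wounds the days overlapped, with -1.35 ± 0.71. Without CAP Day 3 replicate 3 the CAP difference over time was -2.06 (unadjusted p = 0.00878, adjusted p = 0.397) and was called. In CAP-treated wounds the keratinocyte sum overlapped between days, at 32563 to 61500 TPM at Day 3 and 46998 to 97431 TPM at Day 6, and its genes moved in unlike ways. Krt1 (1.90) and Krt10 (1.76), of differentiated layers, were called higher at Day 6, and Krt6a (-1.32), of wound-edge keratinocytes, was called lower, although its libraries overlapped. Of the 8 genes, 5 were lower, among them Krt14 at -0.61 and Krt16 at -0.79, which were not called.

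Il2ra, the alpha chain that gives the IL-2 receptor its high affinity, was at 5.09, 2.28 and 2.25 TPM in the sham group at Day 3 and at 1.76, 1.14 and 1.21 TPM in CAP-treated wounds. All CAP libraries were lower, and sham replicate 1 stood above the other two sham libraries. The log2 difference was -1.09 ± 0.36 (95% interval -1.95 to -0.22), or 2.12-fold lower, with an unadjusted p of 0.0212 and an adjusted p of 0.692. The call was lost with a pseudocount of 1 TPM (-0.77) or after quantile normalization (-0.98), both below 2-fold. It was also lost without P-F127 Day 3 replicate 1 (-0.71), CAP Day 3 replicate 2 (-0.97) or CAP Day 3 replicate 3 (-1.02). Of 5 regulatory T cell genes, 4 were tested at Day 3 and none was called. Foxp3, which defines these cells, was at 0.215 to 0.520 TPM in the sham group and 0.0555 to 0.254 TPM in CAP-treated wounds and did not pass the filter.

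At Day 6, Il2ra overlapped between treatments, with 2.52, 3.65 and 1.27 TPM in the sham group and 2.37, 0.937 and 1.31 TPM in CAP-treated wounds. The log2 difference was -0.63 ± 0.47 and its 95% interval of -1.74 to 0.48 included 0. The difference of the CAP effect between the days, 0.45 ± 0.64, was smaller than its error. Over time it overlapped in both arms, with -0.37 ± 0.45 in the sham group and 0.09 ± 0.38 in CAP-treated wounds.

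Il2rb, the signalling chain that IL-2 and IL-15 share, was the member whose CAP effect at Day 3 was largest relative to the replicate spread. It was at 5.26, 5.80 and 6.84 TPM in the sham group and at 4.11, 2.92 and 3.39 TPM in CAP-treated wounds, all CAP libraries lying below all sham libraries. The log2 difference was -0.77 ± 0.18 (unadjusted p = 0.00447, adjusted p = 0.522), and it kept its direction without any 1 library, between -0.89 and -0.65. At Day 6 the treatments overlapped, with 7.28, 6.32 and 5.79 TPM in the sham group and 7.04, 6.46 and 4.94 TPM in CAP-treated wounds, and a log2 difference of -0.08 ± 0.19. In CAP-treated wounds every Day 6 library lay above every Day 3 library, by 0.80 ± 0.21 (unadjusted p = 0.00718, adjusted p = 0.306), while the sham group stood at 0.12 ± 0.16. The difference of the CAP effect between the days was 0.69 ± 0.26 (unadjusted p = 0.0228, adjusted p = 0.428), and 0.64 with an unadjusted p of 0.0699 without CAP Day 3 replicate 3 and CAP Day 6 replicate 2.

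Some genes of NK and T cells, which carry this chain, were also lower at Day 3. Of 19 marker genes, 17 were tested at Day 3, 15 were lower in CAP-treated wounds and 4 were called lower, Gzma (-1.78), Ncr1 (-1.52), Trac (-1.34) and Cd2 (-1.01). Over all tested genes 1.16% were called lower. Ncr1, an activating receptor of NK cells, was at 2.09, 1.58 and 2.79 TPM in the sham group and 0.665, 0.567 and 0.776 TPM in CAP-treated wounds. Gzma, a granule protease, was at 5.71, 9.02 and 7.11 TPM in the sham group and 2.02, 1.497 and 2.68 TPM in CAP-treated wounds. Most genes of the T cell receptor complex were not called, with Cd3e at -0.01, Cd247 at -0.03, Trbc1 at -0.12, Trbc2 at -0.15, Trdc at 0.09 and Cd3g at 0.19. The summed level of the list overlapped, at 76.4 to 93.9 TPM in the sham group and 59.2 to 87.6 TPM in CAP-treated wounds, and Cd8b1 was listed at 0 in 2 of the 12 libraries. At Day 6, 9 of 17 were higher and 8 lower in CAP-treated wounds and none was called. Over time in CAP-treated wounds, 17 of 17 were higher at Day 6 and 5 were called, among them Cd4 (2.15) and Nkg7 (1.31), while in the sham group 10 of 17 were higher and Cd4 (2.31) alone was called. Over all tested genes, 1.27% were called higher over time in CAP-treated wounds and 2.13% in the sham group. The part of these cells in the Il2rb difference was not tested.

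**Figure D3:**
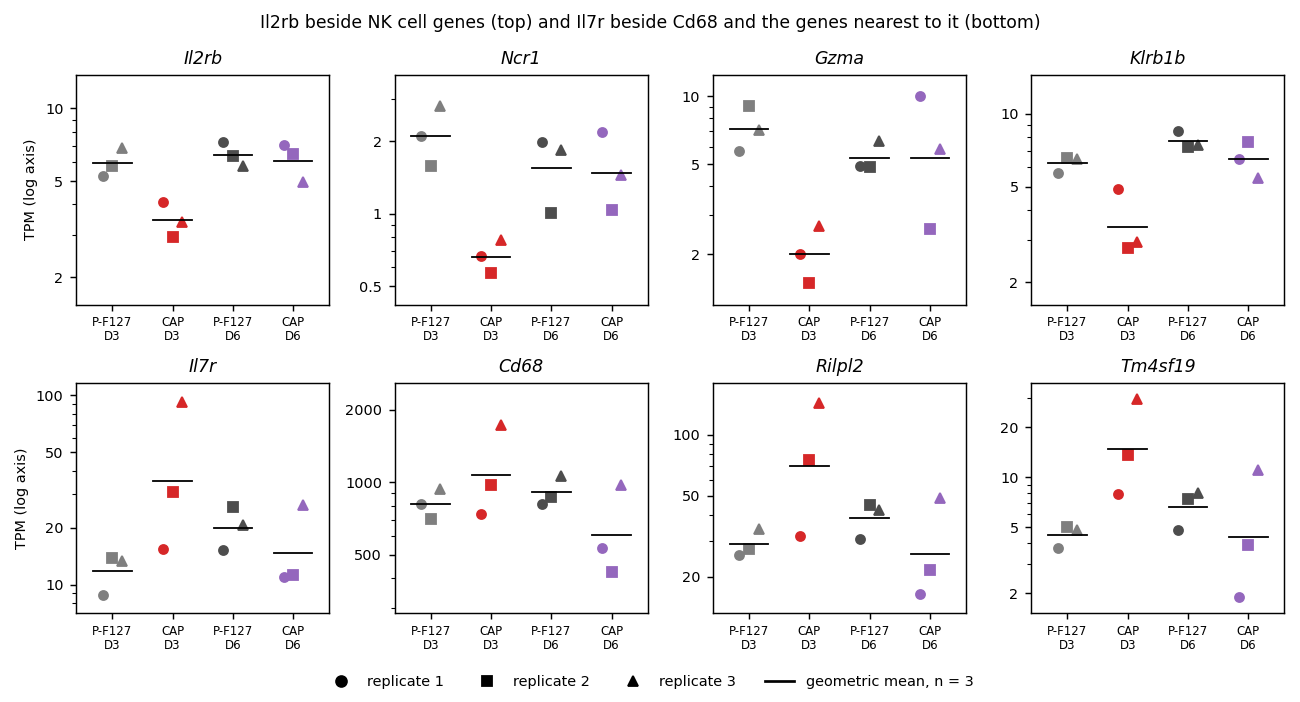
TPM per library (y, log axis) by group (x), for Il2rb beside Ncr1, Gzma and Klrb1b (top) and Il7r beside Cd68, Rilpl2 and Tm4sf19 (bottom), with a marker shape per replicate number and a bar at the geometric mean of 3 libraries. The CAP Day 3 libraries were low together for Il2rb (2.92 to 4.11 TPM) and Ncr1 (0.567 to 0.776 TPM), and CAP Day 3 replicate 3 was the highest library for all 4 genes of the bottom row. Klrb1b, Rilpl2 and Tm4sf19 were picked for their likeness to Il2rb or Il7r over these same libraries. Cd68 was chosen after the values were seen. The likeness shown for these genes therefore follows from how they were picked.

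Il15 and Il15ra, the ligand and its presenting chain, were not called in either CAP comparison. Il15 was at 8.24 to 11.8 TPM in the sham group and 8.75 to 11.01 TPM in CAP-treated wounds at Day 3, and at 10.1 to 11.9 and 6.86 to 15.3 TPM at Day 6, with overlap at both times. The CAP differences were 0.05 ± 0.17 at Day 3 and -0.10 ± 0.28 at Day 6, with 95% intervals of -0.36 to 0.47 and -0.76 to 0.56. Il15ra was at 51.0, 42.9 and 46.2 TPM in the sham group and 43.7, 41.7 and 47.7 TPM in CAP-treated wounds at Day 3, a difference of -0.07 ± 0.10. At Day 6 Il15ra was at 48.6, 49.0 and 47.6 TPM in the sham group and 42.9, 35.5 and 42.8 TPM in CAP-treated wounds, without overlap. That difference of -0.26 ± 0.11 (unadjusted p = 0.0443, adjusted p = 0.250) was well below 2-fold, and it was -0.17 with an unadjusted p of 0.0988 without CAP Day 6 replicate 2. The ratio of Il15ra to Il2rb was 6.75 to 9.69 in the sham group and 10.6 to 14.3 in CAP-treated wounds at Day 3, and 6.67 to 8.22 and 5.50 to 8.67 at Day 6.

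Il21r, the receptor for IL-21, was at 10.9, 4.19 and 6.03 TPM in the sham group at Day 3 and at 7.31, 5.23 and 3.19 TPM in CAP-treated wounds, with overlap and a log2 difference of -0.38 ± 0.42. At Day 6 it was at 11.3, 7.51 and 7.75 TPM in the sham group and 6.46, 1.98 and 3.90 TPM in CAP-treated wounds, all CAP libraries being lower. The Day 6 difference was -1.21 ± 0.41 (95% interval -2.19 to -0.24), or 2.32-fold lower, with an unadjusted p of 0.0217 and an adjusted p of 0.226. The call was lost without CAP Day 6 replicate 2 (-0.78) or without P-F127 Day 6 replicate 1 (-1.03). The days overlapped in both arms, with 0.41 ± 0.34 in the sham group and -0.42 ± 0.48 in CAP-treated wounds.

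Il7, the ligand that sustains lymphocytes, was near the limit of what could be compared. It was at 0.420, 0.298 and 0.598 TPM in the sham group and 0.276, 0.366 and 0.338 TPM in CAP-treated wounds at Day 3, with overlap and a log2 difference of -0.30 ± 0.39. At Day 6 the sham libraries were at 0.421 to 0.476 TPM and the CAP libraries at 0.164 to 0.481 TPM, with a CAP mean of 0.288 TPM, under the filter of 0.3 TPM, so that it was not tested. Whether reads of the antisense gene enter these values was not tested.

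The other ligands of the family were close to 0. Il9 and Il21 were listed at 0 in all 12 libraries, Il2 in 10 and Il4 in 3, and the highest values were 0.223 TPM for Il2 and 0.469 TPM for Il4. The IL-9 receptor chain Il9r did not exceed 0.191 TPM. Of the 6 genes of this list only Il4ra, the receptor chain for IL-4 and IL-13, was tested, at 154 to 324 TPM in the sham group and 143 to 186 TPM in CAP-treated wounds at Day 3. Its CAP difference was -0.33 ± 0.27 at Day 3 and -0.94 ± 0.38 at Day 6 (unadjusted p = 0.0400, adjusted p = 0.245), with overlap at both times. Il4ra was at 54.3 TPM in CAP Day 6 replicate 2, its lowest library.

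Of the 10 JAK, STAT and feedback genes, none was called at Day 3. At Day 6, 1 of them, Jak3, was called lower, where 2.34% of all genes were called lower. Jak3, the kinase bound to the common gamma chain, was at 38.1, 32.5 and 34.2 TPM in the sham group at Day 6 and at 23.8, 8.54 and 25.5 TPM in CAP-treated wounds, all CAP libraries being lower. Its difference was -1.01 ± 0.40 (unadjusted p = 0.0390, adjusted p = 0.243). Jak1, the partner kinase found in most cells, was at 135 to 195 TPM over all libraries and stood at -0.06 ± 0.09 at Day 3 and -0.08 ± 0.13 at Day 6. Stat5a and Stat5b, which carry the signal of IL-2, IL-7 and IL-15, stood at -0.38 and -0.24 at Day 6 and were not called. The feedback genes Cish, Socs1 and Socs2 were not called in either comparison, and Socs3 was at -0.82 at Day 6 (unadjusted p = 0.0279), below 2-fold. The list's median was -0.08 at Day 3 and -0.31 at Day 6, beside -0.05 and -0.12 for all genes. Over time none of the 10 was called in either arm.

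Among the 10 type 2 and alarmin partners of TSLP, 6 were tested and none was called at Day 3. Il5 was listed at 0 in 10 libraries, Il13 and Ccl17 in 6 each and Il25 in 4. At Day 6, Il13ra2, the decoy receptor for IL-13, was called lower, at 15.1, 7.05 and 9.04 TPM in the sham group and 4.05, 0.302 and 2.33 TPM in CAP-treated wounds, a difference of -2.65 ± 0.82 (adjusted p = 0.216). Il33, an alarmin of epithelial and stromal cells, was at 317, 360 and 303 TPM in the sham group and 285, 102 and 158 TPM in CAP-treated wounds at Day 6, without overlap, a difference of -0.97 ± 0.34 that was not called. Its receptor Il1rl1 was at -0.79 ± 0.26 at Day 6, also without overlap and not called. Il17rb was higher at Day 6, at 0.62 ± 0.22, likewise without overlap and not called. Of the 6 genes tested at Day 6, 3 were higher and 3 lower in CAP-treated wounds. Over time in CAP-treated wounds, Il1rl1 (-1.49) and Il33 (-1.20) were called lower at Day 6. In the sham group Il13ra2 (1.62) was called higher at Day 6, although the days overlapped by 1 library.

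**Figure D4:**
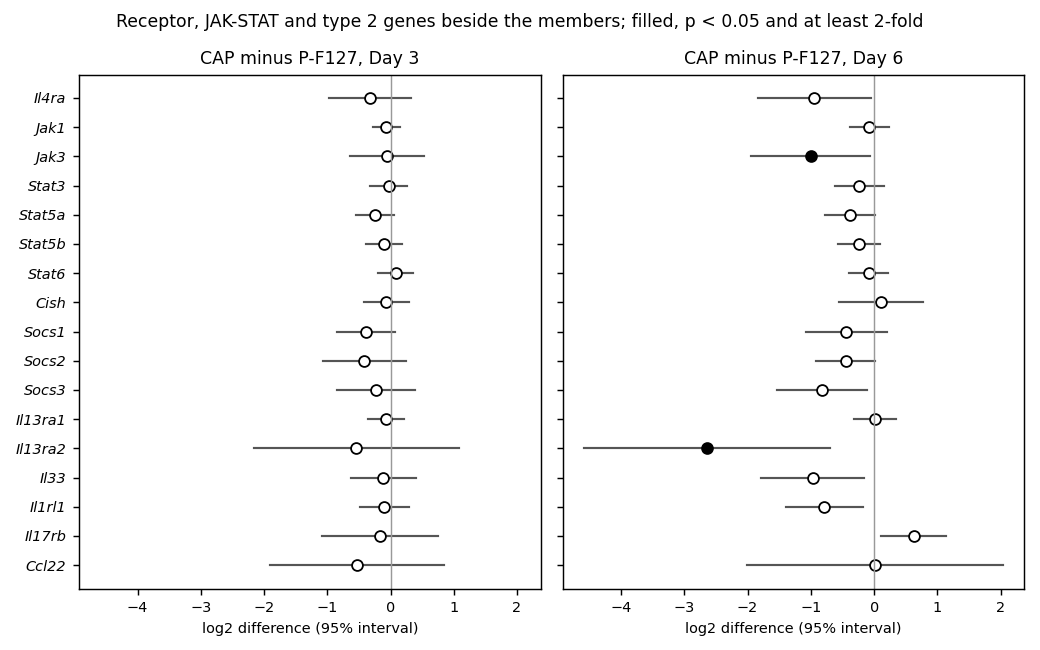
Log2 differences, CAP minus P-F127 (x, with 95% intervals from limma), of the 17 tested receptor, JAK-STAT and type 2 genes (y) at Day 3 (left) and Day 6 (right), with filled points for called genes. No gene is filled at Day 3, and Jak3 (-1.01) and Il13ra2 (-2.65) are filled at Day 6.

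Markers of other cells differed between the same groups. At Day 3, CAP-treated wounds had 5 of 5 erythroid genes called higher, 3 of 10 monocyte and macrophage genes called lower (Ly6c2, Ccr2 and Cx3cr1), and 1 of 6 neutrophil genes called higher (Mmp8). Of all genes tested at Day 3, 0.426% were called higher and 1.16% lower. None of the keratinocyte, fibroblast, endothelial, muscle, mast cell, dendritic, B cell or innate lymphoid type 2 genes was called. At Day 6, 2 of 8 keratinocyte genes were called higher (Krt1 and Krt10), while 3 of 5 endothelial, 2 of 10 monocyte and macrophage and 1 of 5 muscle genes were called lower. Of all genes tested at Day 6, 1.46% were called higher and 2.34% lower. All 6 neutrophil genes were lower at Day 6, with a list median of -1.22, and none was called. Of 5 innate lymphoid type 2 genes, 4 were higher, Il1rl1 was lower and none was called. Which cells carried these genes was not tested. The summed monocyte and macrophage level at Day 6 was 2309 to 3083 TPM in the sham group and 1273 to 2488 TPM in CAP-treated wounds, and the keratinocyte sum was 30321 to 36790 and 46998 to 97431 TPM. Il2rg, Crlf2, Il15ra, Il21r and Jak3 were lower in the same wounds, and the part of cell composition in these differences was not tested.

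The genes whose pattern over the 12 libraries was most like that of 4 members are given as a description, by the root mean square difference of centred log2 levels among 16169 genes. For Il7r, whose own root mean square spread was 0.875, the 5 nearest were Rilpl2 (0.268), Gm20056 (0.270), Gm47815 (0.367), Tm4sf19 (0.368) and 4930512J16Rik (0.377). Rilpl2 ran from 25.7, 27.4 and 34.2 TPM in the sham group to 31.6, 75.4 and 143 TPM in CAP-treated wounds at Day 3, with CAP Day 3 replicate 3 again the highest library. For Il2ra (own spread 0.669) they were the chemokine gene Ccl12 (0.313), Shf (0.343), the interferon-inducible GTPase gene Irgm2 (0.356), Gm5913 (0.365) and Ripor2 (0.368). Ccl12 was at 24.1, 9.90 and 17.3 TPM in the sham group and 10.8, 6.19 and 4.92 TPM in CAP-treated wounds at Day 3, an overlap by 1 library.

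For Il2rb (own spread 0.399) the 5 nearest were 9330159M07Rik (0.163), Klrb1b (0.165), P2ry10 (0.171), Lifr (0.207) and Septin1 (0.214). Klrb1b, a lectin-like receptor of NK cells, was at 5.70, 6.58 and 6.51 TPM in the sham group and 4.86, 2.77 and 2.95 TPM in CAP-treated wounds at Day 3, without overlap. For Tslp (own spread 0.937) they were Krt42 (0.473), Ly6g6g (0.503), Fscn2 (0.510), Mustn1 (0.514) and Gm6104 (0.521), none of them closer than 0.473. The keratin gene Krt42 was at 6.66, 5.86 and 1.86 TPM in the CAP libraries at Day 3, in the same order as Tslp, and the keratinocyte sums of these libraries, 61500, 57900 and 32563 TPM, had that order too. The keratinocyte sums did not follow the order of Tslp in the other groups. In P-F127 Day 6 the sums were 30321, 36790 and 31264 TPM, where Tslp was at 7.55, 3.09 and 8.07 TPM. With a pseudocount of 1 TPM, 3, 3, 4 and 3 of the 5 genes were named again for Il7r, Il2ra, Il2rb and Tslp. All levels share the same 12 libraries, and a library that stands apart moves every gene in it.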

How the data were processed

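The authors made the libraries from wound RNA (kit SureSelect XT HS2 mRNA). Per the methods and the submitters' processing notes, reads were trimmed with Trimmomatic 0.36 and processed for mm10 with StringTie 2.1.4, and the sources used here name no aligner. The deposited values are TPM, 1 table of 55487 genes per library, in which 0.0001 stands for 0 and each library sums to 1000003 TPM, so depth is unknown. Gene positions were the same as in GENCODE M21 for 54777 of 55141 shared identifiers, the 10 members included. Samples were grouped by their titles.

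From the TPM, log2(TPM + 0.1) was tested with limma 3.58.1 (R 4.3.3, intensity trend) in genes averaging 0.3 TPM or more in each group of a comparison (for the difference of the CAP effect between days, in at least 1 of the 4 groups). P-values were adjusted by Benjamini-Hochberg over all genes tested. The steps were tested on simulated data. Fold changes are on the log2(TPM + 0.1) scale and understate those of low genes. Exact permutation tests used scipy 1.17.1. Alternatives were other pseudocounts, no filter, other scalings, a joint fit, a replicate block and leaving out libraries. The members and the gene lists were chosen with earlier results of these data known. All members were named, with the called genes and the partner chains, ligands and kinases of the lists, and the 5 genes most like Il7r, Il2ra, Il2rb and Tslp. Cd68, Foxp3, the T cell receptor and keratin genes, C1qa and the leaving out of 2 libraries together were chosen after the values were seen. The replicate numbers were not used to pair the libraries outside the replicate block. Correlations of same-numbered libraries were not all above 0.1 in any comparison, which cannot show that libraries of the same day were unpaired. Libraries of different days came from different mice, per the paper. Headers of the value columns carry matching numbers for CAP and sham libraries of the same day, and what these numbers mark is not given. Protein sequences were not used here.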

Additional observations from a re-analysis of the deposited data

Results flagged for a closer look

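The CAP effect differed between Day 6 and Day 3 for 2 of 10 members by an unadjusted p below 0.05 of the interaction term in limma, which 11.3% of 20267 genes also had. For Il7r the log2 difference of the effects was -2.02 (unadjusted p = 0.0255, adjusted p = 0.428): all 3 CAP libraries were above the sham group at Day 3 and 2 of 3 were below it at Day 6. The Il7r call was lost without any 1 of 4 libraries (P-F127 Day 3 replicate 1, P-F127 Day 6 replicate 2, and CAP Day 6 replicates 1 and 2), with unadjusted p from 0.0572 to 0.0586. For Il2rb it was 0.69 (unadjusted p = 0.0228, adjusted p = 0.428), and all 3 CAP libraries were below the sham group at Day 3 only. Among T and NK cell genes, the same term was called higher for 6 of 18, as for 2.18% of all genes. Neither difference passed adjustment over all genes.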

How the results depend on the processing

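The number of members called moved with several settings. At Day 3 it was 1 with a pseudocount of 1 TPM and 1 after quantile normalization, and 0 to 2 with libraries left out. At Day 6 it was 0 to 2 with libraries left out, and the number past adjustment was 0 to 1. Over time in the sham group it was 1 with a pseudocount of 0.01 TPM, 1 after quantile normalization and 0 to 1 with libraries left out. Over time in CAP-treated wounds it was 1 in the joint fit of all 12 libraries and 0 to 1 with libraries left out, and for the difference between days it was 0 to 2. With the replicate block, 2 members (Il7r and Tslp) were called over time in CAP-treated wounds, and 1 (Il7r, adjusted p = 0.0407) passed adjustment over time in the sham group. Per the paper, separate mice were killed at each day. The block over time therefore joined libraries of different mice and was no paired test. The block changed no other member's call, and the correlations of same-numbered libraries ran from -0.17 to 0.29, so the numbers were not taken to pair the libraries.

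Values near 0 changed sign. Leaving out a library left 2 in its group, and leaving out CAP Day 3 replicate 3 and CAP Day 6 replicate 2 together was chosen after seeing the data and is part of the ranges over time in CAP-treated wounds and between days. At Day 6, Il2rb was at 0.0306 and Il15 at 0.0141 with median-ratio scaling, and at 0.0933 and 0.0560 after quantile normalization. With libraries left out, the CAP effect at Day 3 ranged from -0.43 to 0.72 for Tslp, -0.0388 to 0.22 for Il15 and -0.17 to 0.20 for Crlf2. At Day 6 it ranged from -0.18 to 0.0665 for Il2rb, -0.37 to 0.20 for Il15 and -0.77 to 0.18 for Tslp. Over time in the sham group it ranged from -0.70 to 0.0290 for Il2ra, -0.13 to 0.28 for Il7 and -0.0043 to 0.12 for Il15ra. Over time in CAP-treated wounds the ranges were -0.26 to 0.37 for Il2ra, -0.81 to 0.0167 for Il21r, -0.18 to 0.48 for Il15, -0.33 to 0.0590 for Il2rg, -0.18 to 0.0069 for Il15ra and -0.75 to 0.0309 for Crlf2. For the difference between days they were -1.17 to 0.17 for Tslp and -0.43 to 0.23 for Il15. Of the member values under all alternatives, 632 kept direction and call, 17 lost a call, 13 gained one and 31 changed sign, and the cause was not tested. Il7 at Day 6, under the filter as reported, was at -0.59 ± 0.39 with no filter. Over all genes, calls ranged from 154 to 568 at Day 3 and, without CAP Day 6 replicates 2 and 3 in turn, from 311 to 1483 at Day 6. With the latter left out, 1430 genes passed adjustment at Day 6, and without P-F127 Day 3 replicate 3 the 420 that passed over time in the sham group fell to 1.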
